A study of Mus musculus with 20 samples.

Results

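Sialyltransferases are Golgi enzymes that move sialic acid from its activated donor, CMP-sialic acid, onto the ends of the sugar chains of glycoproteins and glycolipids. RNA of 8 of them was followed here, St3gal1, St3gal2, St3gal3, St3gal4, St3gal5, St3gal6, St6gal1 and St8sia4, which are 8 of the 24315 genes in each of the 2 expression tables, and all 8 passed the filter on low values in both. The genes were selected on a result of these data, namely that St3gal5 passed the thresholds in LSK cells of all 3 mutant genotypes, so the LSK contrasts are given below as a description, in which a call says only that a gene passed the thresholds, no p-value is printed and nothing is supported by the calls. The MEP contrasts, which the selection rule did not use, are tested, although the members were chosen with earlier results of these data known.

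The linkage an enzyme makes gives it its name. The ST3Gal enzymes join sialic acid to galactose in the alpha-2,3 linkage, St6gal1 makes the alpha-2,6 linkage on the N-glycans of glycoproteins, and St8sia4 builds the long chains of polysialic acid. Within the first group St3gal5 stands apart, as it acts on lactosylceramide and makes GM3, the ganglioside from which most others are built, whereas St3gal1 acts on O-glycans, and St3gal4 and St3gal6 cap the chains that selectins bind. In blood formation these caps set how long glycoproteins and platelets stay in the circulation, and they are read by sialic acid receptors of the Siglec and selectin families.

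LSK cells (lineage negative, Sca-1 and c-Kit positive, the stem cell and early progenitor fraction) and MEP cells (megakaryocyte-erythroid progenitors) were sorted from the bone marrow of C57BL/6 mice, and polyA RNA was sequenced. Each table holds 10 libraries, 3 WT, 3 Dnmt3a-/-, 2 Bcor-/- and 2 Bcor-/-Dnmt3a-/-, and values are FPKM, a fragment count scaled for transcript length and library size. WT mice had neither gene deleted. Dnmt3a-/- mice carried a deletion of Dnmt3a, a DNA methyltransferase gene, and Bcor-/- mice a deletion of Bcor, a corepressor gene. Bcor-/-Dnmt3a-/- mice (double knockout) carried both. Deletion was made with Mx1-Cre, which is induced by pIpC and also acts outside blood. The labels carry Cre for every mutant library and not for the WT libraries. By the labels, Cre thus differs together with the deletion in every contrast, and its part was not tested. The study reports that Dnmt3a deletion was only partial in Dnmt3a-/- mice, and that its loss was complete only in leukemic double knockout mice. The study describes the double knockout mice of these comparisons as leukemic, while the labels give neither age nor disease stage for a library. Each mouse gave a library of either cell type, and the label of 1 Bcor-/- library in each cell type names 2 mice.

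The double knockout libraries stood apart from the rest. Pearson r of log2(FPKM + 1) between them was 0.849 in LSK and 0.815 in MEP, against 0.971 to 0.987 between libraries of any one of the other genotypes. The deleted genes still gave RNA: Bcor had 22.4 to 23.2 FPKM in Bcor-/- LSK against 29.5 to 32.4 in WT and 24.0 to 37.4 in the double knockout, and in MEP, where 21.3 to 26.9 FPKM in WT stood against 19.5 to 22.4 and 19.6 to 26.7, the groups overlapped. Dnmt3a had 11.3 to 16.9 FPKM in Dnmt3a-/- LSK and 10.4 to 10.9 in the double knockout against 16.1 to 19.8 in WT, the first overlapping WT. In MEP it had 2.56 to 5.40 FPKM in Dnmt3a-/- and 3.44 to 6.85 in the double knockout against 5.49 to 6.64 in WT, with 1 double knockout library above every WT library. A gene table cannot separate a transcript with deleted exons from an intact one. For Bcor-/- mice the study reports that PCR detected no Bcor mRNA in LSK cells. It also reports loss of Bcor protein in lineage-negative marrow cells. Read counts are not given. Relative to the first WT replicate, depth as read from values under 0.2 FPKM ran from 0.79 to 1.32 in LSK, and from 1.0 to 1.6 in MEP. Markers of other cells differed as well and are given beside the results they move with.

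The start regions of the genes on which the results turn are printed here so that their makeup can be set beside their expression. RefSeq windows (GRCm38.p6) from 250 bases before to 50 after a start site matched 6 of the 8 members, and none was matched for St3gal1 and St3gal2. The letters searched were AGATAA or AGATAG, or with T as the first base TGATAA or TGATAG, on both strands, the motif that GATA factors of the erythroid and stem cell lineages are known to bind, and no other motif was searched. Windows with a match made up 29.8% of all 32851 windows of this length. For St3gal5, and for the 3 members called higher in the double knockout of both cell types, the window of the most upstream start is shown 5′ to 3′, with matches in capitals. The St3gal5 window is chr6:72097358-72097657 (plus strand), that of St3gal6 is chr16:58524204-58524503 (minus strand), that of St6gal1 is chr16:23224490-23224789 (plus strand) and that of St8sia4 is chr1:95667545-95667844 (minus strand).
St3gal5: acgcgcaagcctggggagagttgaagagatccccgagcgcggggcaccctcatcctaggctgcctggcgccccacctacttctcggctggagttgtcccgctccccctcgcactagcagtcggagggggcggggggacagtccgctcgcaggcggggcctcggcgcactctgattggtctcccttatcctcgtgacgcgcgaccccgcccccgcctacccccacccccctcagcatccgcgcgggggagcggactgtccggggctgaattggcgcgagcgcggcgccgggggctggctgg
St3gal6: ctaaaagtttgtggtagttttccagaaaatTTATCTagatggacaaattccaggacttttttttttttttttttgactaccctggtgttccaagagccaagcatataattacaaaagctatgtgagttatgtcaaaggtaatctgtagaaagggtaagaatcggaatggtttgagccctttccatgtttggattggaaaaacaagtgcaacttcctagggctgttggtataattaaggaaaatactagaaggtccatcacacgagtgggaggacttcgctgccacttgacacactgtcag
St6gal1: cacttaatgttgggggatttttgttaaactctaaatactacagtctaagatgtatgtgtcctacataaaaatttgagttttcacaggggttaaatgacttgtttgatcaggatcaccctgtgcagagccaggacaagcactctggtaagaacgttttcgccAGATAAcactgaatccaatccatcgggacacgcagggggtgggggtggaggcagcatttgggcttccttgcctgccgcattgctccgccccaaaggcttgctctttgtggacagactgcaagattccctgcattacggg
St8sia4: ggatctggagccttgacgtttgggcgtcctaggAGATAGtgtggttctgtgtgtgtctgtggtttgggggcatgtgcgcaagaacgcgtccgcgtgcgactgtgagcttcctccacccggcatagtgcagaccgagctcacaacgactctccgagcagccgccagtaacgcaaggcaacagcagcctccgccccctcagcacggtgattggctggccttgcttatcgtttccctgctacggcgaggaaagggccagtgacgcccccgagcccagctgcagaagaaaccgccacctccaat

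The 4 windows differ in their content of CG, the dinucleotide that DNA methyltransferases act on. The St3gal5 window holds 33 CG, more than 91.4% of all windows, whose median is 7 CG. The St8sia4 window holds 22, the St6gal1 window 7 and the St3gal6 window 3. A second start of St3gal6, at chr16:58523377-58523676, lies in a window with 20 CG, and the further starts of St6gal1 have 10 and 6. The St3gal5 window holds none of the GATA letters, and those printed for St3gal6, St6gal1 and St8sia4 hold 1 match each, where 29.8% of all windows hold at least 1. The windows of the second start of St3gal6 and of the further starts of St6gal1 hold none. Those of St3gal4 and St3gal3, not printed here, also hold none. They have 31 and 26 CG, more than 89.4% and 83.1% of all windows, so St3gal5 does not stand apart in either trait. Neither methylation nor binding was measured, and a match of letters is a description of the window alone.

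In the GENCODE annotation of GRCm38, St3gal5 spans chromosome 6, 72097592 to 72154571, St3gal6 chromosome 16, 58468125 to 58524243, St6gal1 chromosome 16, 23224740 to 23360350, and St8sia4 chromosome 1, 95587682 to 95667571. The submitters' processing notes name mm9, an older build, so these positions were not used with the expression values. Whether the libraries kept the strand is not given in the sources used here, and exons of 3 members overlap those of another gene. St3gal6 shares 1603 exon bases with Dcbld2 on the other strand, but Dcbld2 had at most 1.92 FPKM in any library. St3gal4 shares 412 with the noncoding 4930581F22Rik, which reached at most 9.62 FPKM, and St6gal1 shares 200 with BC106179, which has no value in the tables. Reads on these stretches cannot be assigned with certainty.

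In WT cells the sialyltransferases formed a different order in each cell type. In LSK, St3gal1 (39.1 ± 7.16 FPKM, SD, n = 3) and St3gal4 (37.4 ± 1.67 FPKM) were the most abundant, with overlapping ranges. St8sia4 followed with 22.5 ± 1.48 FPKM, St3gal2 with 13.5 ± 0.807 and St3gal3 with 11.4 ± 2.08, the ranges of St3gal2 and St3gal3 overlapping. St3gal5 (6.66 ± 1.43 FPKM), St6gal1 (4.21 ± 3.16 FPKM) and St3gal6 (3.99 ± 0.663 FPKM) were lowest, and St6gal1 overlapped both of the other two.

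In WT MEP, St3gal5 was the most abundant of the 8 with 67.2 ± 12.8 FPKM (SD, n = 3), above St3gal4 at 43.6 ± 4.49 with no overlap. St3gal6 (25.6 ± 6.27 FPKM) and St3gal1 (23.3 ± 2.40 FPKM) overlapped, as did St3gal3 (14.3 ± 1.19 FPKM) and St3gal2 (11.7 ± 2.08 FPKM). St8sia4 had 4.21 ± 1.9 FPKM and St6gal1 1.35 ± 0.272 FPKM, each clear of its neighbours. The deposited values therefore put St3gal5 at 10.1 times and St3gal6 at 6.42 times their LSK level in MEP, and St8sia4 at 0.187 times and St6gal1 at 0.321 times. The tables may have been scaled separately, and these ratios were not tested.

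**Figure D1:**
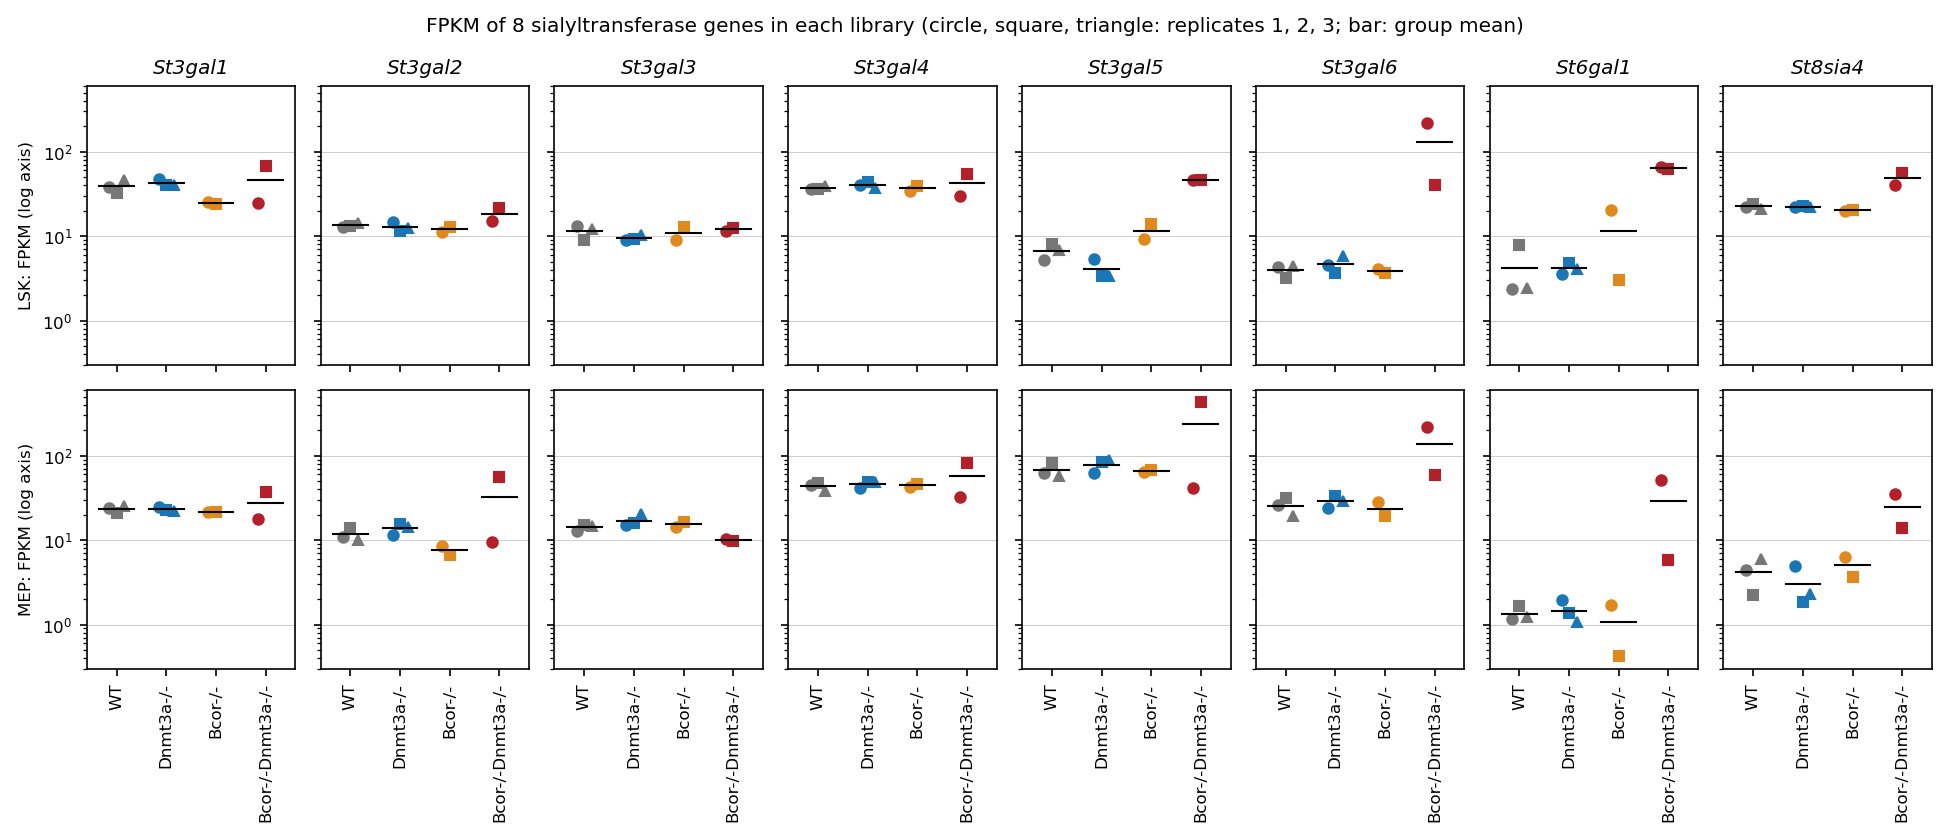
FPKM (log axis) of each of the 8 genes in every library of LSK (upper row) and MEP (lower row), by genotype; symbols are replicates and bars are group means. St3gal5 lies near 7 FPKM in WT LSK and near 67 FPKM in WT MEP, and the double knockout libraries of St3gal6, St6gal1 and St8sia4 lie above all WT libraries in both rows.

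St3gal5, the GM3 synthase, was the only member to pass the thresholds in all 3 LSK contrasts, which is why the genes were chosen. WT LSK libraries had 5.16, 8.02 and 6.78 FPKM, Dnmt3a-/- 5.35, 3.40 and 3.38, Bcor-/- 9.18 and 13.7, and the double knockout 46.8 and 45.7. The 3 genotypes thus did not share a direction. Dnmt3a-/- libraries lay lower and overlapped WT through 1 library on each side, while Bcor-/- and double knockout libraries lay above the highest WT library.

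The log2 fold change of St3gal5 on the log2(FPKM + 1) scale was -0.61 (SE 0.21) in Dnmt3a-/- LSK, 0.70 (SE 0.24) in Bcor-/- LSK and 2.64 (SE 0.24) in double knockout LSK. The mean FPKM of the double knockout was 6.95 times that of WT. A gene was called where the unadjusted limma p was under 0.05 and the fold change exceeded 1.5. The Dnmt3a-/- value lies just inside these limits, and the Bcor-/- value of St6gal1, 0.98 (SE 0.64), lies outside them through its error alone. The call in Dnmt3a-/- LSK is lost without WT replicate 2 (-0.48), Dnmt3a-/- replicate 2 (-0.52) or Dnmt3a-/- replicate 3 (-0.52). The call in Bcor-/- LSK is lost without WT replicate 1 (0.55) or Bcor-/- replicate 2 (0.43).

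Markers of other cells also differed in the Dnmt3a-/- LSK comparison. WT replicate 2, the WT library with the highest St3gal5 and one of those without which the call is lost, stood apart with a summed 12847 FPKM of granulocyte and monocyte markers against 3432 and 3533 in the other WT libraries, and 308 FPKM of macrophage markers against 135 and 53.4. The Dnmt3a-/- libraries had 2551 to 4037 and 35.9 to 107 FPKM of these lists, at median log2 fold changes of -0.40 and -1.14, and the granule protein gene Camp was the 1 of the 10 granulocyte and monocyte markers called, lower. B cell markers summed to 58.4 to 68.0 FPKM against 39.5 to 81.6 in WT, with a median of 0.51 and the B cell transcription factor gene Pax5 called higher. The sums of the LSK gate and erythroid lists overlapped WT. The sum of T and NK cell markers lay lower (152 to 198 FPKM against 211 to 232), with no overlap. That of megakaryocyte markers lay higher (129 to 148 against 97.4 to 117), also with no overlap. The T and NK cell sum was mostly Nkg7, at 151 to 196 FPKM against 207 to 228 in WT. Cd3d, Cd3e and Klrb1c overlapped WT, while Cd3g had at most 0.217 FPKM against 0.224 to 0.855. Single marker genes here are named after their values were seen, and the part of these markers in the St3gal5 values was not tested.

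Among all genes, 0.443% were called in Dnmt3a-/- LSK (0.209% higher, 0.234% lower), 13.2% in Bcor-/- LSK (7.20% higher, 6.03% lower) and 28.3% in double knockout LSK (15.0% higher, 13.3% lower). Beside these, 1 of the 8 members was called lower, 1 higher and 4 higher. As the selection used these contrasts, nothing is read from the counts. The other 7 members ranged from -0.23 to 0.17 in Dnmt3a-/- LSK and from -0.62 to 0.98 in Bcor-/- LSK.

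St3gal1, the O-glycan enzyme, gave the lowest of the Bcor-/- LSK values. Its Bcor-/- libraries had 25.6 and 24.2 FPKM against 38.3, 32.4 and 46.7 in WT, with no overlap, at a log2 fold change of -0.62 (SE 0.34). Its double knockout libraries lay on either side of WT at 24.4 and 67.4 FPKM. The St8sia4 libraries of Bcor-/- LSK also lay below every WT library, at 19.9 and 20.5 FPKM against 21.2 to 24.2. The share of all genes with no overlap in Bcor-/- LSK is not given here, and nothing is read from it. St6gal1 split the Bcor-/- LSK libraries, with 20.3 FPKM in the one whose label names 2 mice and 3.0 in the other, against 2.33, 7.85 and 2.44 in WT.

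St3gal6, St6gal1 and St8sia4 were the other 3 members above the thresholds in double knockout LSK. St3gal6 had 218 and 40.2 FPKM against 4.30, 3.23 and 4.43 in WT, St6gal1 had 65.2 and 62.6 against 2.33, 7.85 and 2.44, and St8sia4 had 39.8 and 56.6 against 22.2, 24.2 and 21.2. For each of them both double knockout values exceeded the highest WT value. Log2 fold changes were 4.26 (SE 0.55) for St3gal6, 3.80 (SE 0.64) for St6gal1 and 1.04 (SE 0.14) for St8sia4. St3gal6 differed most between the 2 mice, and St6gal1 and St3gal5 least.

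The remaining 4 members were not called in double knockout LSK. St3gal2 had 15.1 and 21.4 FPKM against 12.9, 13.2 and 14.4 in WT, at a log2 fold change of 0.39 (SE 0.17). St3gal4, at 29.9 and 54.7 FPKM, lay on both sides of its WT range of 36.4 to 39.4, and St3gal3, at 11.6 and 12.5 FPKM, lay inside its WT range. St3gal1, St3gal3 and St3gal4 had log2 fold changes of 0.07 (SE 0.34), 0.08 (SE 0.18) and 0.11 (SE 0.21). With St3gal2 included, 5 of the 8 members lay above every WT library, where 25.5% of all genes did.

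The MEP contrasts ask whether the same genes differ in the other cell type, on values that the selection rule did not use. In Dnmt3a-/- MEP, limma called 0 of the 8 members, and 0 reached an unadjusted p under 0.05. Their log2 fold changes ran from -0.38 (St8sia4) to 0.23 (St3gal2), and 0.412% of all genes were called (0.201% higher, 0.210% lower). In Bcor-/- MEP, limma again called 0 of 8 members and 0 reached an unadjusted p under 0.05, with values from -0.57 (St3gal2) to 0.25 (St8sia4), beside 2.76% of all genes (1.23% higher, 1.53% lower).

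The St3gal5 libraries of the single deletions lay near those of WT in MEP. WT libraries had 62.1, 81.8 and 57.7 FPKM, Dnmt3a-/- 62.4, 83.6 and 88.6, and Bcor-/- 64.1 and 67.0, and the 3 groups overlapped. The log2 fold change was 0.22 in Dnmt3a-/- MEP (95% interval -1.33 to 1.77, limma adjusted p = 1) and -0.02 in Bcor-/- MEP (-1.75 to 1.71, adjusted p = 1). Both intervals hold the Dnmt3a-/- and Bcor-/- values measured in LSK. Their width, however, comes from a variance shared by all genotypes, the double knockout included. The SD of St3gal5 in MEP was 12.8 FPKM in WT, 13.9 in Dnmt3a-/- and 2.06 in Bcor-/-, against 273 in the double knockout. The intervals thus do not measure the spread of the compared groups alone. They cannot decide whether those groups exclude the LSK values. St3gal2 had 8.50 and 6.63 FPKM in Bcor-/- MEP against 10.9, 14.1 and 10.1 in WT, with no overlap, and its adjusted p was 1. The share of all genes with no overlap in this contrast is not given here, and nothing is read from it.

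In double knockout MEP, St3gal6, St6gal1 and St8sia4 rose. St3gal6 had 216 and 58.8 FPKM against 25.8, 31.7 and 19.2 in WT, and its log2 fold change was 2.13 (SE 0.47, limma adjusted p = 0.0105). St6gal1 had 52.0 and 5.75 FPKM against 1.17, 1.66 and 1.22, a log2 fold change of 3.01 (SE 0.72, adjusted p = 0.0140). St8sia4 had 34.9 and 14.005 FPKM against 4.43, 2.21 and 5.99, a log2 fold change of 2.23 (SE 0.49, adjusted p = 0.00992). Both double knockout libraries were above every WT library for all 3 genes, and in each case replicate 1 was the higher. Without replicate 1 the log2 fold changes were 1.20 for St3gal6, 1.53 for St6gal1 and 1.60 for St8sia4, and without replicate 2 they were 3.06, 4.50 and 2.86, with all 3 genes called in both fits.

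These 3 calls stand against a contrast in which 30.9% of all genes were called, 18.5% higher and 12.4% lower, so that 3 of 8 is near the background and is no result about sialyltransferases as a group. With the adjusted p the same 3 members passed, beside 14.1% of all genes called higher. No overlap upwards was found for the same 3, beside 24.6% of all genes. Across all alternatives the limma adjusted p ran from 0.000141 to 0.152 for St3gal6, from 5.53e-05 to 0.158 for St6gal1 and from 0.00274 to 0.287 for St8sia4. Each was highest with 1 variance per genotype, a setting in which St8sia4 was no longer called.

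St3gal5 was not called in double knockout MEP, and its 2 libraries lay on opposite sides of WT. They had 41.4 and 427 FPKM against 62.1, 81.8 and 57.7, and the log2 fold change was 1.0 (95% interval -0.73 to 2.73, limma adjusted p = 0.334). Without double knockout replicate 1 it was 2.67, and without replicate 2 it was -0.67, each fitted with the lone library assumed to vary like the other groups. The same mice had given 46.8 and 45.7 FPKM in LSK.

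Other ST3Gal members split in the same way between the 2 double knockout MEP libraries. Replicate 1 was below every WT library and replicate 2 above every WT library for St3gal1 (17.7 and 37.3 FPKM, WT 20.7 to 25.5), St3gal2 (9.48 and 55.2 FPKM, WT 10.1 to 14.1) and St3gal4 (32.0 and 82.0 FPKM, WT 38.6 to 47.3). None of the 3 was called, with log2 fold changes of 0.14, 0.94 and 0.24 and limma adjusted p of 0.690, 0.224 and 0.590. Without replicate 1, 7 of the 8 members were called, all but St3gal3. Replicate 2 was therefore the library with the high St3gal1, St3gal2, St3gal4 and St3gal5, and replicate 1 the library with the highest St3gal6, St6gal1 and St8sia4.

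St3gal3 was lower than every WT library in both double knockout MEP libraries, at 10.2 and 9.83 FPKM against 12.9, 15.2 and 14.8. Its log2 fold change was -0.47 (SE 0.15) with a limma adjusted p of 0.0407, but the fold stayed under 1.5 and it was not called. Under quantile normalization it was -0.73 and was called. The share of all genes below every WT library in this contrast is not given here, and nothing is read from the lack of overlap.

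**Figure D2:**
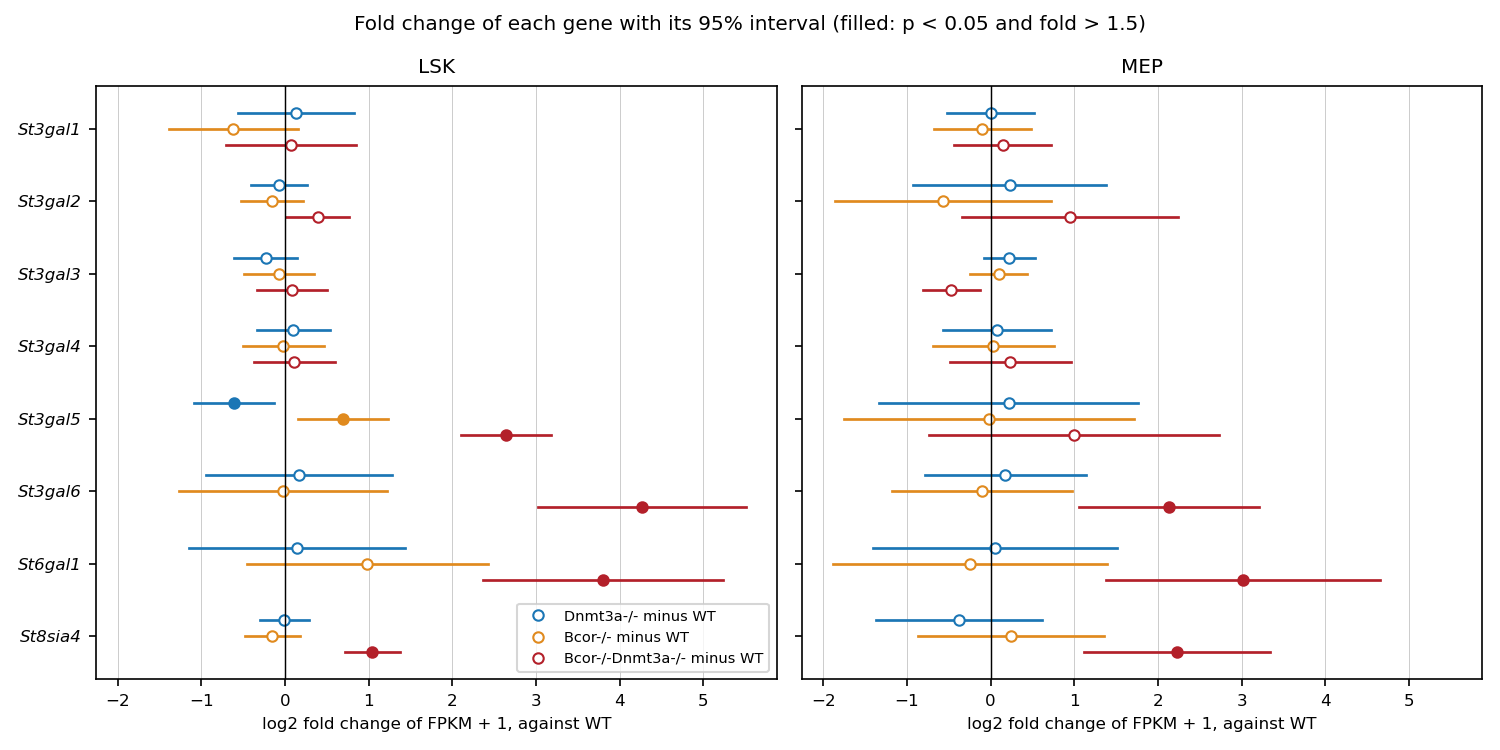
Log2 fold change of FPKM + 1 against WT (x axis) of the 8 genes in LSK (left) and MEP (right), with 95% intervals of the limma fit; colours are the mutant genotypes and filled points passed p under 0.05 with a fold change above 1.5. The LSK panel was used to choose the genes; in MEP the filled points are St3gal6 (2.13), St6gal1 (3.01) and St8sia4 (2.23) of the double knockout.

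**Figure D3:**
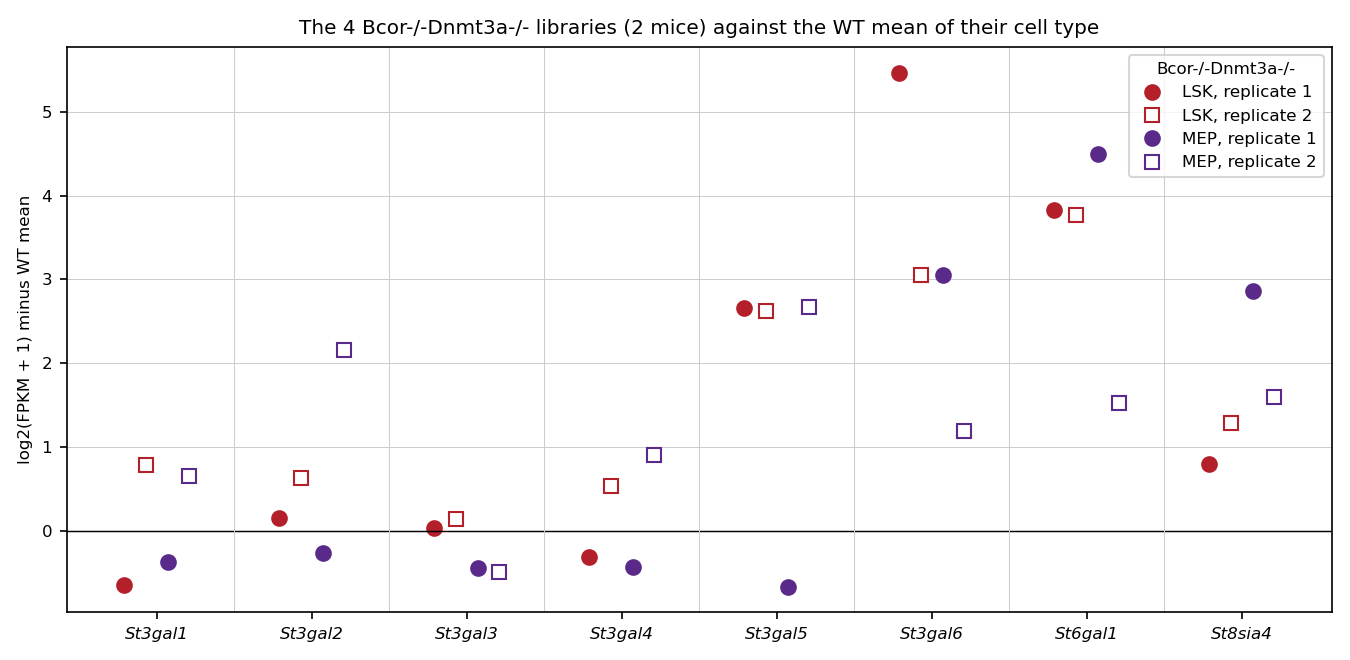
Difference of each double knockout library from the WT mean of its cell type on the log2(FPKM + 1) scale (y axis), by gene; filled symbols are replicate 1, open symbols replicate 2, and LSK and MEP have different colours. St3gal5 lies at 2.66 and 2.62 in LSK but at -0.67 and 2.67 in MEP, and St3gal6 is higher in replicate 1 than in replicate 2 in both cell types.

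Markers of other blood cells moved with these libraries. In bulk RNA, more cells of a type and more RNA per cell cannot be told apart. Of 6 B cell markers 5 were called higher in double knockout LSK, 2 of which passed the filter only through these libraries, and 5 in double knockout MEP. Their summed FPKM was 1121 to 2422 in double knockout LSK against 39.5 to 81.6 in WT, and 1867 and 121 in replicates 1 and 2 of double knockout MEP against 20.5 to 111 in WT. In MEP the higher B cell sum and the higher St6gal1, St3gal6 and St8sia4 were all in replicate 1. In LSK replicate 1 had the higher B cell sum (2422 against 1121 FPKM) and the higher St3gal6. However, St6gal1 was near equal in the mice (65.2 and 62.6 FPKM) and St8sia4 was higher in replicate 2 (39.8 and 56.6 FPKM). Of the LSK sums, Vpreb1 gave 878 FPKM in replicate 1 and 1.88 in replicate 2, against 3.26 to 16.4 in WT. Cd79b was higher in replicate 2 (246 and 424 FPKM), and the other B cell markers in replicate 1. Both genes are named after their values were seen.

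The erythroid markers differed in the opposite order between the mice. Of the 9 listed in the tables, all 9 were called higher in double knockout LSK and 4 in double knockout MEP. Their sum was 5383 and 20557 FPKM in replicates 1 and 2 of double knockout LSK against 75.96 to 163 in WT, and 3625 and 66492 FPKM in double knockout MEP against 932 to 1469 in WT. The library with 427 FPKM of St3gal5 was the one with the largest erythroid sum, in which Hbb-b1 is listed at 0 beside 55204 FPKM of Hba-a1. In double knockout LSK, St3gal5 had 46.8 FPKM in replicate 1 and 45.7 in replicate 2. The MEP sum of replicate 2 is mostly Hba-a1, and not all of the list was called. Gata1, Klf1 and Epor, the regulators and the erythropoietin receptor of the lineage, were not called in double knockout MEP. They averaged 0.81, 0.89 and 0.71 times the WT mean FPKM, each with replicate 1 below every WT library. In replicate 2, Gata1 had 239 FPKM against 170 to 225 in WT, and Klf1 219 against 144 to 192, both above every WT library. Epor had 95.6 FPKM there, inside its WT range of 78.0 to 115. In double knockout LSK the same 3 genes averaged 4.0, 10.1 and 5.59 times WT. They are named after their values were seen.

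Macrophage markers summed to 722 and 26.5 FPKM in replicates 1 and 2 of double knockout MEP, with 5 of 6 called higher, 3 of which passed the filter only through these libraries, against 6.08 to 10.1 in WT. They summed to 1378 and 106 FPKM in double knockout LSK (1 of 6 called higher) against 53.4 to 308 in WT. Granulocyte and monocyte markers summed to 6444 and 14011 FPKM in double knockout MEP, with 6 of 10 called higher, against 298 to 757 in WT. In LSK their sum was 18252 to 26129 FPKM in Bcor-/- (5 of 10 called higher) and 7824 to 8433 in the double knockout (1 of 10), against 3432 to 12847 in WT. In Bcor-/- LSK, where St3gal5 was 0.70, the erythroid sum was 202 to 256 FPKM with 4 of 9 called higher, and the B cell sum was 32.1 to 70.8 FPKM with 0 of 6 called. The T and NK cell sum was 449.5 to 616 FPKM there against 211 to 232 in WT, with Nkg7, a cytotoxic granule gene named after its values were seen, the 1 of 5 called higher and a median log2 fold change of -0.30. The macrophage sum was 249 to 308 FPKM and the megakaryocyte sum 114 to 152 FPKM, both overlapping WT. Of 5 T and NK cell markers 4 were called higher, 3 of them genes that passed the filter only through these libraries, and 1 lower in double knockout LSK, at sums of 92.5 and 294 FPKM against 211 to 232 in WT. In double knockout MEP 3 of the 4 tested were called higher, and 2 of these passed the filter only through the double knockout.

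Most genes of the LSK gate list were lower in double knockout LSK. Of the 6, only Ly6a and Kit encode surface markers that the gate selects for. Cd34, Flt3, Hlf and Mecom are not part of the gate. The 6 genes, of which Cd34 and Flt3 were the most abundant in WT, summed to 177 and 359 FPKM against 1049 to 1206 in WT LSK, with 5 of 6 called lower, and to 536 and 795 in Bcor-/- LSK, with 3 called lower. Ly6a, which encodes the Sca-1 of the gate, was the exception in double knockout LSK and is named after its values were seen, at 63.5 and 220 FPKM against 59.8 to 70.7 in WT, and was not called. In double knockout MEP Ly6a had 17.8 and 1.87 FPKM against 0 to 0.790 in WT. It was the 1 gene of the list called higher, having passed the filter only through these libraries, and Kit was the 1 called lower. Megakaryocyte markers summed to 14.3 and 49.5 FPKM in double knockout LSK against 97.4 to 117 in WT, and to 17.8 and 70.6 FPKM in double knockout MEP against 86.4 to 334. Apart from Hbb-b1 in 1 library, no defining erythroid, B cell or macrophage marker was at 0 in the double knockout. The part that other cells have in the sialyltransferase values was not tested.

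**Figure D4:**
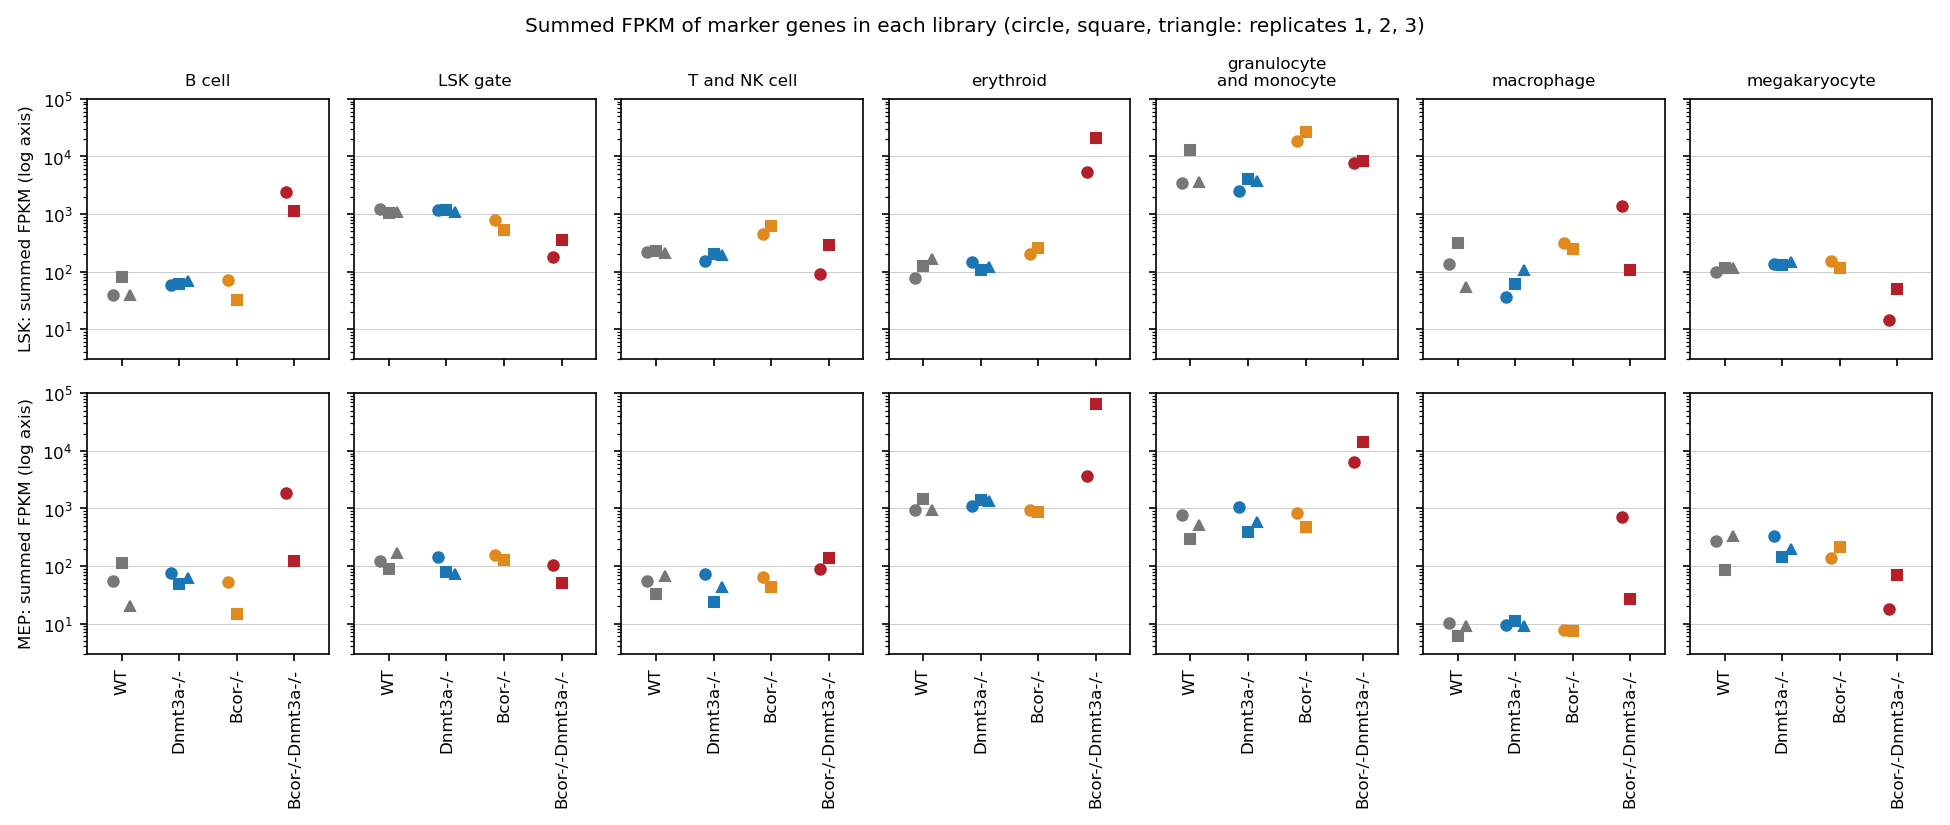
Summed FPKM (log axis) of 7 lists of marker genes in every library of LSK (upper row) and MEP (lower row), by genotype; symbols are replicates. In double knockout MEP, replicate 1 has the higher B cell (1867 FPKM) and macrophage (722 FPKM) sums and replicate 2 the higher erythroid sum (66492 FPKM).

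The genes whose pattern was most like that of St3gal5 differed between the cell types. Over the 10 LSK libraries they were Usf1, a helix-loop-helix transcription factor (Pearson r of log2(FPKM + 1) 0.992), Gsn, the actin-severing protein gelsolin (0.991), and Cd82, a tetraspanin (0.986). Over the 8 LSK libraries without the double knockout their r was 0.969, 0.961 and 0.957. Over the 10 MEP libraries they were Isca1, an iron-sulfur cluster assembly factor (0.998), Slc16a10, an aromatic amino acid transporter (0.997), and Cpox, an enzyme of heme synthesis (0.995), and over the 8 without the double knockout 0.956, 0.946 and 0.938. The points share the tables' scaling and genotypes, and the genes were picked as the highest of all tested.

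The other genes of the pathway were taken from 8 lists with 58 genes, of which 44 passed the filter in LSK and 41 in MEP. In Dnmt3a-/- cells limma called 0 of them in either cell type, and 0 reached an unadjusted p under 0.05. In Bcor-/- LSK 9 were called higher and 4 lower, and in Bcor-/- MEP 1 was called higher. Double knockout LSK had 14 called higher and 7 called lower, and double knockout MEP had 18 and 4. However, 2 of the genes tested in LSK and 7 of those tested in MEP averaged under 1 FPKM outside the double knockout and passed the filter through its libraries alone, so that they had to be high there. With the filter on the other 8 libraries, a setting added after the data were seen, LSK had 13 called higher and 7 lower of 42 tested, beside 27.1% of all genes, and MEP had 11 and 4 of 34, beside 28.9%. The median log2 fold change of the pathway genes was 0.27 in LSK and 0.64 in MEP with those genes and 0.19 and 0.30 under this filter, where that of all genes was -0.0036 and -0.018. The background in these contrasts is the 13.2%, 2.76%, 28.3% and 30.9% of all genes given above, and with the filter over all 10 libraries the median log2 fold change of all genes was 0.019 and 0.018 in the double knockout.

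The steps before St3gal5 make its acceptor. Ugcg, which makes glucosylceramide, fell in double knockout MEP (log2 fold change -0.66, SE 0.19, limma adjusted p = 0.0274), at 63.3 and 100.1 FPKM against 121 to 136 in WT, and without replicate 1 it was -0.34 and not called, nor was it called with 1 variance per genotype. In double knockout LSK its value was 1.07 (SE 0.13), at 50.8 and 59.5 FPKM against 23.6 to 27.6 in WT. B4galt5 and B4galt6 are the 2 lactosylceramide synthases. B4galt5 rose in double knockout MEP from 0.781 to 1.67 FPKM in WT to 6.03 and 8.67 (1.89, SE 0.28, limma adjusted p = 0.00197). B4galt6 had 1.78 and 4.57 FPKM there against 0.127 to 0.658 in WT, and passed the filter only through these libraries. In Bcor-/- LSK, where St3gal5 was 0.70, B4galt6 was 2.30 (SE 0.37), at 41.7 and 64.6 FPKM against 7.99 to 12.3 in WT. In Bcor-/- MEP B4galt6 was the 1 gene of the pathway called (1.09, SE 0.35), with a limma adjusted p of 0.603. Of the 6 tested synthesis genes, 4 with B4galt6 included were called higher and 1 lower in double knockout MEP, and 3 higher and 0 lower in double knockout LSK.

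The donor of all sialyltransferases is CMP-sialic acid, and of the 5 tested genes of its supply 1 was called in double knockout MEP. Cmah, which turns CMP-N-acetylneuraminic acid into the N-glycolyl form that mice also use, had 44.2 and 8.93 FPKM in double knockout MEP against 0.944 to 1.78 in WT, and passed the MEP filter only through these libraries. In LSK it had 67.4 and 56.1 FPKM against 3.92 to 4.64 in WT (3.54, SE 0.30). Its higher MEP value was in replicate 1, the library with the higher St6gal1.

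Sialidases remove sialic acid again. Neu1, the lysosomal sialidase, had 22.1 and 25.0 FPKM in double knockout LSK and 27.8 and 37.0 in Bcor-/- LSK against 6.64 to 9.69 in WT, log2 fold changes of 1.45 (SE 0.20) and 1.89 (SE 0.20). In double knockout MEP its value was 0.82 (SE 0.29, limma adjusted p = 0.0575), and that of the plasma membrane sialidase Neu3 was 0.64 (SE 0.22, adjusted p = 0.0552). Both were called at the unadjusted p. Neu1 was not called without double knockout replicate 1 (0.28) or WT replicate 1 or 2 (0.76 and 0.79), nor Neu3 without double knockout replicate 2 (0.35) or WT replicate 1 or 3 (0.60 and 0.59). Both calls were also lost with quantile normalization (0.59 and 0.22), with 1 variance per genotype and with only the compared genotypes. Npl, which splits free sialic acid, had 6.46 and 4.55 FPKM in double knockout LSK and 15.7 and 16.4 in Bcor-/- LSK against 24.1 to 30.4 in WT, log2 fold changes of -2.14 (SE 0.15) and -0.74 (SE 0.15). Among the 6 tested genes of this list, 2 were called higher and 2 lower in double knockout LSK, and 2 higher in double knockout MEP.

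Lysosomal breakdown of glycosphingolipids gave 2 called higher of 6 in double knockout MEP. Psap, the precursor of the saposins that present lipids to the hydrolases, rose to 420 and 313 FPKM from 146 to 172 (log2 fold change 1.21, SE 0.18, limma adjusted p = 0.0019). In double knockout LSK 3 of the 6 were called higher and 1 lower.

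Of the other sialyltransferase genes, 4 of 12 were tested in each cell type. St6galnac6 and St6galnac4, which add sialic acid to the inner sugars of gangliosides and O-glycans, were the 2 called lower in double knockout MEP. St6galnac6 had 9.85 and 12.9 FPKM against 18.1 to 23.2 in WT (-0.79, SE 0.16, limma adjusted p = 0.00687), and St6galnac4 had 14.9 and 8.05 FPKM against 16.6 to 17.9 in WT (-0.61, SE 0.22, adjusted p = 0.0631). In double knockout LSK St6galnac6 had 7.25 and 8.45 FPKM against 17.5 to 23.3 in WT (-1.26, SE 0.14). St8sia6, an alpha-2,8-sialyltransferase, was the 1 called higher in double knockout LSK, at 2.66 and 19.8 FPKM against 0.703 to 1.76 in WT (2.12, SE 0.66), and it was not called in MEP. It falls outside the rule for named genes and was picked after its values were seen. The MEP call of St6galnac6 was lost with 1 variance per genotype. St6galnac4 was not called in that setting, with only the compared genotypes, or without double knockout replicate 2 (-0.20) or WT replicate 1 or 2 (-0.60 and -0.58). The MEP direction of St6galnac6 and St6galnac4 was opposite to that of St3gal6, St6gal1 and St8sia4 in the same libraries.

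Enzymes that build the chains to be capped gave 3 called higher of 5 in double knockout MEP. B4galt1, which adds the galactose that St6gal1 and the ST3Gal enzymes use, rose from 21.4 to 24.3 FPKM in WT to 31.9 and 53.9 (0.83, SE 0.19, limma adjusted p = 0.0113). Gcnt1, which branches O-glycans, had 16.4 and 78.1 FPKM against 7.74 to 10.1 (1.91, SE 0.50, adjusted p = 0.0204), and C1galt1c1, the chaperone of the O-glycan galactosyltransferase, had 12.7 and 17.9 against 6.80 to 11.5 (0.60, SE 0.26, adjusted p = 0.103). Gcnt1 was 3.0 without double knockout replicate 1 and 0.82 without replicate 2, and was called in both fits. B4galt1 was not called without replicate 2 (0.46), nor C1galt1c1 without replicate 2 (0.37) or WT replicate 1 (0.38), with no filter, with quantile normalization (0.41), with 1 variance per genotype or with only the compared genotypes. In double knockout LSK 1 of 6 tested was called higher and 1 lower, the latter being Fut7, a fucosyltransferase that completes selectin ligands, named after its values were seen, at 1.17 and 4.38 FPKM against 28.9 to 31.0 in WT. In MEP Fut7 had 1.80 and 2.82 FPKM against 1.71 to 7.51 and was not called. Gcnt1 and B4galt1 were higher in replicate 2 of MEP, as St3gal1, St3gal2, St3gal4 and St3gal5 were.

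Among the receptors that read these caps, 6 of 9 tested were called higher and 1 lower in double knockout MEP, and 3 higher and 2 lower in double knockout LSK. Of those called higher, 5 in MEP (Cd22, Cd33, Siglec1, Siglece and Siglech) and 1 in LSK (Cd22) passed the filter only through the double knockout libraries, so the counts are no support for a change of the receptors. Cd22, a B cell Siglec that binds the alpha-2,6 product of St6gal1, had 41.0 and 37.9 FPKM in double knockout LSK against 0.255 to 0.978 in WT, and 29.6 and 4.26 FPKM in double knockout MEP against 0.680 to 1.68. Siglecg, also a B cell receptor, had 60.3 and 8.32 FPKM in double knockout MEP against 2.15 to 2.85 (2.75, SE 0.68, limma adjusted p = 0.0167) and 95.02 and 73.98 FPKM in double knockout LSK against 6.38 to 9.73 (3.18, SE 0.19). Without double knockout replicate 1 the MEP value of Siglecg was 1.40, and without replicate 2 it was 4.11, called in both fits. Cd22 and Siglecg were higher in replicate 1 of MEP, where the B cell markers and St6gal1 were. Selp, the platelet and endothelial selectin, had 1.19 and 2.57 FPKM in double knockout LSK against 10.6 to 15.3 (-2.29, SE 0.29). The 2 carriers of polysialic acid, Ncam1 and Nrp2, were tested in LSK only, Nrp2 through the double knockout libraries alone, where 0 were called in the double knockout beside the higher St8sia4.

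**Figure D5:**
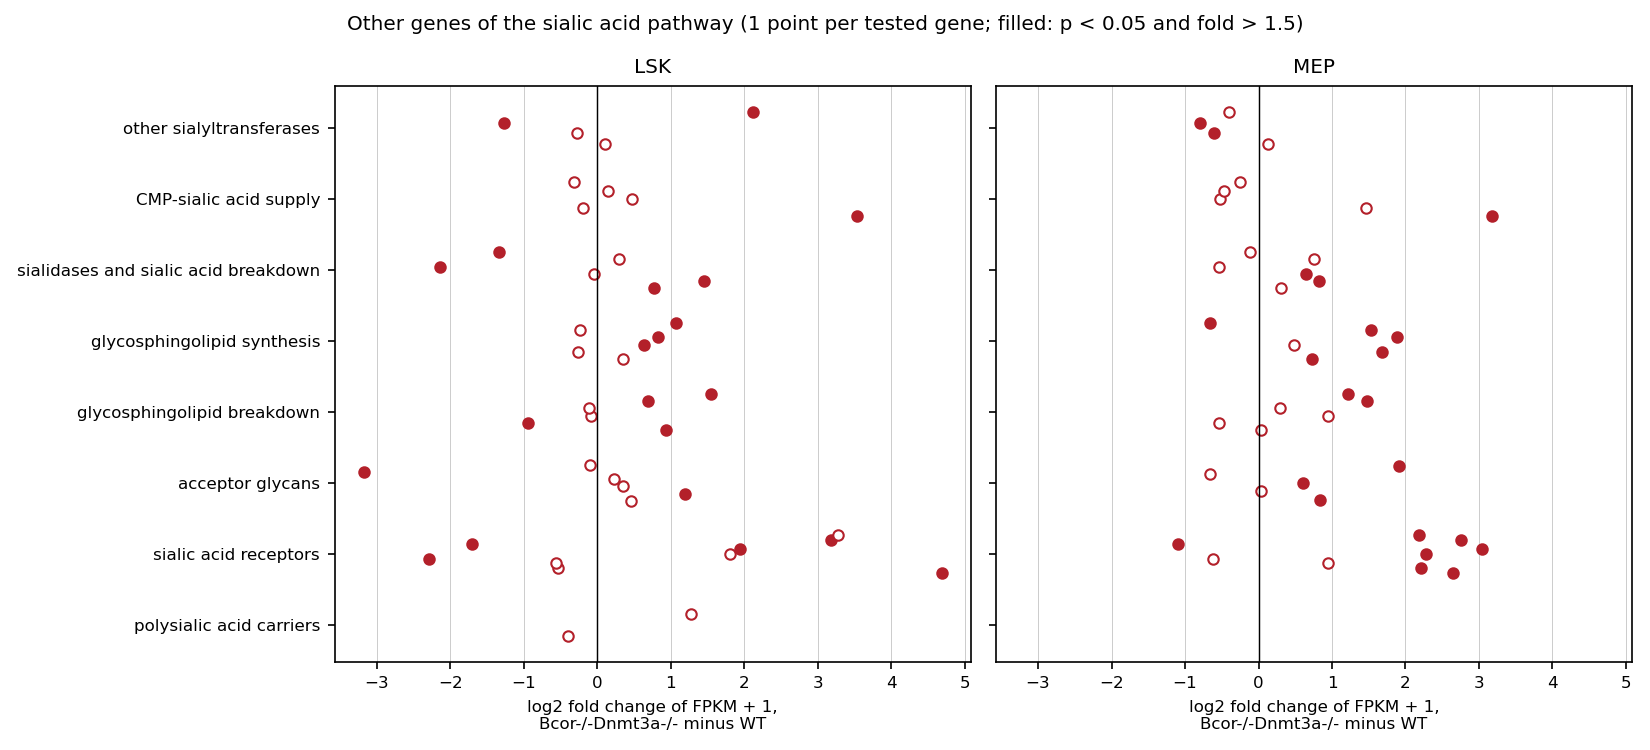
Log2 fold change of FPKM + 1 in the double knockout against WT (x axis) of each tested gene of 8 pathway lists (y axis) in LSK (left) and MEP (right); filled points passed p under 0.05 with a fold change above 1.5. In MEP 18 filled points lie to the right of 0, 7 of them genes that passed the filter only through the double knockout, and 4 to the left, and in LSK 14 and 7.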

How the data were processed

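PolyA RNA was measured in 20 libraries of sorted LSK or MEP cells, 10 for each cell type. The authors deposited FPKM per gene and library in 1 table for each cell type. The submitters' processing notes name STAR 2.5.1b, SAMtools 1.9, Cufflinks 2.2.1 and mm9, with no role or order, and the scaling between libraries and the use of strand are not given in the sources used here. The tables may have been scaled separately, so tests were made within a table only. The tables give no read counts, so the depth is unknown apart from the relative depth read from low values, and no count model was used.

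FPKM values were analysed as log2(FPKM + 1). The filter kept genes averaging at least 1 FPKM across a table's 10 libraries, 11952 in LSK and 10933 in MEP, and all 4 genotypes were fitted together with limma 3.58.1 in R 4.3.3, with moderated variances that follow the mean level. Calls needed both an unadjusted p under 0.05 and a change of more than 1.5 times. Benjamini-Hochberg adjusted p-values over all tested genes are given beside the MEP values. A fold change on the log2(FPKM + 1) scale understates the change of low genes, and all tests are two-sided. The script was tested on simulated data. The p-values measure the spread between these libraries, which come from few mice.

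The members, the pathway lists and the marker lists were chosen with earlier results of these data known. Pathway genes are named with values where they were called in double knockout MEP or in at least 2 contrasts, at most 3 in each list by the smallest p, and the 3 genes most like St3gal5 are those with the highest Pearson r over the 10 libraries of a cell type. Alternatives were the adjusted p, quantile normalization, a pseudocount of 0.1, a minimum of 5 FPKM, no filter at all, the replicate number as a block, 1 variance per genotype, only the compared genotypes and leaving out each library, and, added after the data were seen, the filter on the libraries outside the double knockout. Marker genes Ahsp and Trac were not analysed here. Values of some single genes of the lists are not reported here.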

Additional observations from a re-analysis of the deposited data

Results flagged for a closer look

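St3gal3 was flagged because every Dnmt3a-/- library lay below the WT mean in LSK and above it in MEP, at log2 fold changes of -0.23 and 0.23. In the double knockout the direction was the opposite, with St3gal3 at 0.083 in LSK and -0.47 in MEP. St3gal5 was flagged in Bcor-/-, where both libraries lay above the WT mean in LSK (0.70) and below the mean WT FPKM in MEP (-0.019), at 64.1 and 67.0 against 67.2. On the log2(FPKM + 1) scale 1 of these MEP libraries lay at -0.051 from the WT mean and the other at 0.012, so that the opposite direction does not hold on that scale. The difference between cell types was not tested in any of these cases.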

How the results depend on the processing

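The members' calls in MEP Dnmt3a-/- and MEP Bcor-/- were 0 under every alternative, leaving out libraries included (0 to 0). With the adjusted p the LSK calls fell from 1 to 0 in Dnmt3a-/- and from 1 to 0 in Bcor-/-, and in LSK Bcor-/- they were 2 with 1 variance per genotype and 2 with only the compared genotypes. Leaving out 1 library gave 0 to 1 called members in LSK Dnmt3a-/-, 0 to 2 in LSK Bcor-/-, 4 to 6 in LSK double knockout and 3 to 7 in MEP double knockout. St3gal5 ranged from 0.12 to 0.37 in MEP Dnmt3a-/-, from -0.12 to 0.13 in MEP Bcor-/- (0.13 without WT replicate 2 and 0.012 without Bcor-/- replicate 1, both above 0) and from -0.67 to 2.67 in MEP double knockout.

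Quantile normalization reversed St3gal1 (-0.061) and St3gal4 (-0.022) in LSK double knockout and St3gal1 (-0.0044) in MEP double knockout. Leaving out 1 library gave in LSK double knockout -0.64 to 0.78 for St3gal1 (-0.053 without WT replicate 2, -0.64 without double knockout replicate 2), -0.061 to 0.18 for St3gal3 (below 0 without WT replicate 2) and -0.32 to 0.54 for St3gal4 (below 0 without double knockout replicate 2). In MEP double knockout it gave -0.37 to 0.66 for St3gal1, -0.27 to 2.16 for St3gal2, -0.43 to 0.90 for St3gal4 and -0.67 to 2.67 for St3gal5, the lowest each time without double knockout replicate 2 and the highest without replicate 1. For the pathway, called genes in MEP Bcor-/- were 0 with the adjusted p, 2 with a pseudocount of 0.1, 0 with a minimum of 5 FPKM and 2 with quantile normalization, against 1. In MEP double knockout they were 11 with the minimum of 5 FPKM, where fewer genes are tested, and 14 with 1 variance per genotype, against 22. Leaving out 1 library gave 0 to 1 in MEP Bcor-/-, 15 to 22 in MEP double knockout, 13 to 16 in LSK Bcor-/-, 19 to 24 in LSK double knockout, 0 to 1 in LSK Dnmt3a-/- and 0 to 2 in MEP Dnmt3a-/-. Where no cause is shown by the setting itself, the cause was not tested.

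Correlations of same-numbered deviations of WT and Dnmt3a-/- were 0.018, 0.057 and -0.035 in LSK and 0.19, 0.34 and -0.19 in MEP. These values do not decide whether the replicate numbers pair the samples. With the replicate block the called members stayed at 1, 1, 4, 0, 0 and 3 in the 6 contrasts, St3gal5 in MEP double knockout was 1.0, and the block gave 14 called pathway genes in LSK Bcor-/- and 21 in MEP double knockout. The filter on the libraries outside the double knockout, added after the data were seen, left 4 and 3 called members in double knockout LSK and MEP. Beyond the main values, 589 values kept their direction and side of the thresholds or stayed near the main value, 39 kept the direction but no longer passed, 10 newly passed, 20 moved further and 13 reversed. Leaving out a library of a pair leaves 1, which is assumed to vary like the other groups.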
